A study of Mus musculus with 64 samples.

Results

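Cytosolic ribosomal protein genes encode the proteins of the large (RPL) and small (RPS) ribosomal subunits. They were found by name: protein-coding mouse genes whose symbol starts with Rpl or Rps and a number, with Rplp0, Rplp1, Rplp2 and Rpsa, and without processed pseudogenes and the Rps6k kinases. This rule gave 83 of the 26286 genes of the table, of which 46 encode large subunit proteins, 29 small subunit proteins and 7 are paralogs of such genes. The last, Rps19bp1, is matched by its name and encodes a binding partner of RPS19, not a subunit. Rps12 and Rps27 are not among the 83 and were not analysed here.

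The series is RNA sequencing of scat mice, which are homozygous for the scat allele of Rasa3 on a BALB/cBy background (CbyJ.Cby-Rasa3(scat)/Llp, genotype scat/scat). The Rasa3 product turns the small GTPases Ras and Rap1 to their inactive form, and scat mice pass through severe anemia (crisis) and partial remission. Whole bone marrow (BM) and whole spleen (SP) were sequenced, with 2 populations sorted from each: MEP, the megakaryocyte-erythroid progenitors, and SMP, stem and myeloid progenitors (Lin-, Sca-, Kit+, CD34+, CD16/32 low). The 64 libraries come from 18 mice, and 63 could be placed in a group. Crisis mice were 23, 26 and 28 days old, and the same 3 mice gave every crisis library. Scat/scat mice in remission were 32, 33 or 58 days old (3 mice per population, 2 in spleen MEP). Wild-type (+/+) littermates were either 23 to 28 days old (young WT, 3 mice per population) or 32 to 58 days old (older WT, 1 or 2 mice per population). The 3 young WT mice of spleen SMP served no other population, so that mouse and population cannot be told apart there. Remission mice 2866 and 2868 of spleen SMP also served no other population. Sca1 is low in BALB mice, so the SMP gate does not separate stem cells from common myeloid progenitors.

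Each ribosome carries 1 copy of most of these proteins, and cells make them in near-equal amounts. Their mRNAs often begin with a 5' terminal oligopyrimidine tract (5' TOP), a run of pyrimidines that opens with C and lets mTORC1, through LARP1, control translation of the whole group. Erythroid precursors depend on a high supply of ribosomes: mutations in RPS19, RPL5, RPL11 and other ribosomal protein genes cause Diamond-Blackfan anemia, in which erythroid progenitors are lost.

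The annotated start sites of the members the results turn on are shown as 30 bases, 10 before the start and 20 from it, 5' to 3' on the gene's strand. Capitals mark a pyrimidine run of at least 5 bases that opens with C within 5 bases of the start. The sequences are RefSeq's, with coordinates of GRCm38.p6.
Rps27l (chr9:66946076-66946105, plus strand): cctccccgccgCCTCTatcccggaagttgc
Rpl34 (chr3:130730379-130730408, minus strand): tccctgacgtaCTTCCTgtccggcgccgtc
Rpl22l1 (chr3:28805498-28805527, plus strand): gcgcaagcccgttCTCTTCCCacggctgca
Rps2 (chr17:24720053-24720082, plus strand): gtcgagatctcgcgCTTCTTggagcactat
Rps6 (chr4:86857348-86857377, minus strand): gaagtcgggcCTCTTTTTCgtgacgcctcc
Rps27rt (chr9:114982720-114982749, minus strand): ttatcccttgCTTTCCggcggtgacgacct
Rpl41 (chr10:128549149-128549178, minus strand): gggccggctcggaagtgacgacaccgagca
Rpl22 (chr4:152325716-152325745, plus strand): cctgggaaaagcaatagctggccgatcgtt
Rps19 (chr7:24884582-24884611, plus strand): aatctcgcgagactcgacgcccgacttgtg
The last 3 hold no such run at this annotated start. Rpl22l1, a paralog of Rpl22 that can take its place in the large subunit, holds the run and Rpl22 does not. Of the 63 members in RefSeq's promoter table, 29 (46.0%) held a run, against 5718 of all 27025 genes in the table (21.2%). The run was found at 16 of 34 large subunit genes, 10 of 21 small subunit genes, 3 of 7 paralogs and not at Rps19bp1. A match describes the letters at one annotated start and does not show which start the cells used.

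Normalised counts per library summed to 33.6 to 107.6 M (median 50.6 M). Within each population, libraries were put on one scale by their median ratio over genes, and all levels below are normalised counts on that scale. Members varied little against each other: relative to the median member of its own library, a member's level had a median SD of 0.15 on the log2 scale over 63 libraries, and 75 of the 83 stayed under 0.3. Rps3, a small subunit protein that also acts in DNA repair, varied least (SD 0.070) and Rps19 came next (0.071). Rpl3l and Rpl39l, paralogs known from muscle and testis, varied most (1.89 and 1.53) and were near 0. In spleen SMP of young WT mice Rpl3l had 18.7, 11.9 and 8.19 counts, and Rpl39l had 0.0, 2.07 and 0.0. Rps27l (0.49), Rpl29 (0.41), Rps2 (0.38) and Rpl41 (0.38) followed. Of these 4, Rpl29 had a median of 489.9 normalised counts over the libraries, the lowest of the 75 subunit genes, and Rpl41 had 30852. Processed pseudogenes limit the levels of single members. Pseudogene rows similar in sequence to 72 members number 573, and the rows of Rps2-ps10 (median 102919 counts against 12520 for Rps2) and Rpl3-ps1 (58986 against 37041 for Rpl3) are larger than those of their genes. The 39 pseudogene rows of Rpl29 together had 19967 counts, against 489.9 for Rpl29. Changes between groups were also computed on each member summed with its pseudogene rows, and these are given beside Rps2 and, for remission, Rpl29.

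Beside the members, markers of other cell types moved in the sorted populations. In spleen SMP, 7 of 10 erythroid markers were higher in crisis (summed level 111217 to 328226 in young WT, 365995 to 913590 in crisis) and 6 of 7 early progenitor markers were lower (113650 to 135596 against 30658 to 82932). In bone marrow SMP, 9 of 10 erythroid markers were higher (35814 to 57778 against 114696 to 189243). In whole spleen, 7 of 7 B cell markers (96490 to 114156 against 5611 to 14011) and 7 of 7 T and NK cell markers (18473 to 27124 against 1309 to 3189) were lower. Rasa3 itself, whose scat allele is a point mutation that a transcript level does not check, was lower in crisis in spleen SMP (11881, 12446 and 10716 counts in young WT, 8208, 4286 and 6308 in crisis, with a limma log2 difference of -0.95 and adjusted p = 0.0293). In bulk samples fewer cells of a type and less RNA per cell cannot be told apart, and the part of these shifts in the results below was not tested.

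In crisis, the stem and myeloid progenitors of the spleen had higher ribosomal protein mRNA levels, relative to other genes, than those of young WT mice. Of the 82 members that passed the filter on low values (a mean of at least 10 counts, which left out Rpl39l), 49 rose and none fell (limma with Benjamini-Hochberg adjustment over all 15434 genes, threshold 0.05), while 12.9% of all genes tested rose. The median member was 1.76-fold higher (log2 0.82, quartiles 0.65 and 0.94), against a median of -0.04 for all genes, and 81 of the 82 were above 0. Genes of both subunits rose: 27 of 46 large subunit genes rose (median 0.79, range 0.32 to 1.25), as did 16 of 29 small subunit genes (median 0.81, range 0.43 to 1.11), 5 of the 6 paralogs tested and Rps19bp1 (0.99). Library by library, the median of the 75 subunit genes stood at 0.09, 0.27 and -0.43 in young WT and at 0.50, 0.81 and 0.93 in crisis, in log2 relative to the young WT mean. The young WT and crisis libraries do not overlap on this measure, and the third young WT library lies below the other two.

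**Figure D1:**
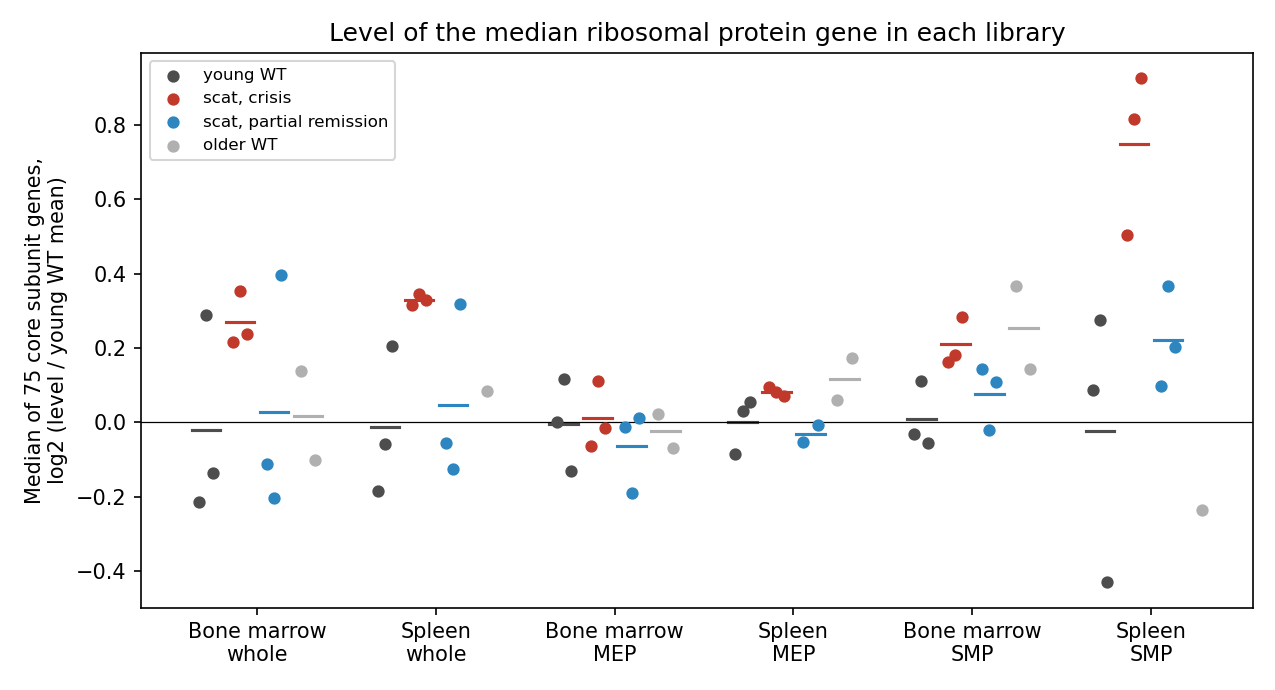
Median log2 level of the 75 subunit genes in each library, relative to the young WT mean of the same population, with 1 point per library, a line at each group's mean and the 6 populations side by side. In spleen SMP the crisis libraries lie at 0.50 to 0.93, above the young WT libraries at -0.43 to 0.27, and the MEP libraries of both states lie close to 0.

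The stalk proteins, which draw elongation factors to the ribosome, give an example. Rplp0 had 71434, 61299 and 49398 counts in young WT spleen SMP and 85549, 133317 and 147688 in crisis, a log2 difference of 0.99 (SE 0.25, adjusted p = 0.03) by limma. Every crisis library lay above every young WT library, with the first crisis mouse the nearest to them. Rplp1 behaved alike, with 36639, 31012 and 24581 counts in young WT and 44833, 78125 and 78689 in crisis (1.10, SE 0.26, adjusted p = 0.0281, limma). Rplp2, the partner of Rplp1, differed by 0.70 (SE 0.26, adjusted p = 0.0747) in limma and did not pass.

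Among small subunit genes, Rpsa, which also serves as a laminin receptor, had 113619, 121744 and 97979.9 counts in young WT and 151375, 198864 and 215348 in crisis. It rose by 0.75 (SE 0.20, adjusted p = 0.0336) on the log2 scale in limma, with no overlap between the groups. Rps19, the gene most often mutated in Diamond-Blackfan anemia, had 21898, 25584 and 14967 counts in young WT and 31419, 37719 and 45693 in crisis, and rose by 0.90 (SE 0.24, adjusted p = 0.0325) in limma. Rps6, the target of the S6 kinases downstream of mTORC1, had 73172, 90657 and 59074 counts in young WT and 99779, 112509 and 120696 in crisis. Its groups did not overlap, but the difference of 0.60 (SE 0.21, adjusted p = 0.0624) did not pass in limma. Rps2 rose by 1.05 (SE 0.31, adjusted p = 0.0392), or 0.89 with its pseudogene rows, and Rps4x, the X-linked small subunit gene, differed by 0.43 (SE 0.20, adjusted p = 0.135).

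Among large subunit genes, Rpl41 and Rpl34 had the highest values. Rpl41, the shortest protein of the group, had 24016, 22209.7 and 13708 counts in young WT and 33351, 55444 and 52903 in crisis (1.25, SE 0.28, adjusted p = 0.0278, limma). Rpl34 had 7909.7, 11511 and 6228 counts in young WT and 16214, 20242 and 20532 in crisis (1.19, SE 0.24, adjusted p = 0.0278, limma). In both, all crisis libraries lay above all young WT libraries. Rpl5 and Rpl11, which with 5S rRNA bind MDM2 when ribosome assembly fails, differed by 0.81 (SE 0.20, adjusted p = 0.0299) and 0.74 (SE 0.27, adjusted p = 0.0705) in limma, so that only the first passed. Toward the low end, Rpl28 had 52684, 57237 and 39402 counts in young WT and 57382, 62013 and 69744 in crisis (0.35, SE 0.20, adjusted p = 0.203, limma). Its lowest crisis library lay just above its highest young WT library, and the difference did not pass.

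**Figure D2:**
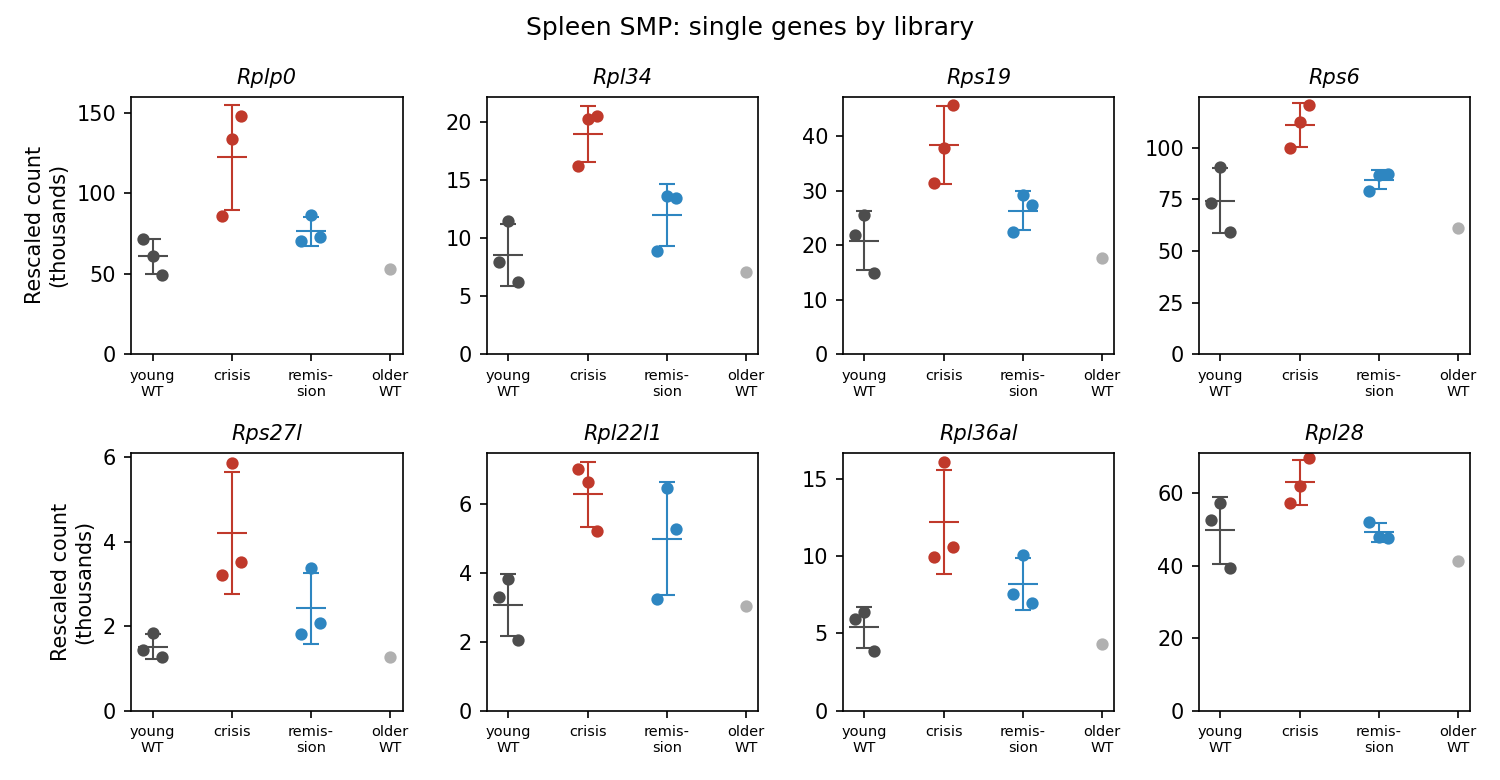
Normalised counts of single ribosomal protein genes in the spleen SMP libraries, 1 point per mouse, grouped as young WT, crisis, remission and older WT, with the mean and SD of each group of 3 and an axis that starts at 0. Rps27l and Rpl34 in crisis lie wholly above young WT, while the lowest crisis library of Rpl28 (57382 counts) is next to its highest young WT library (57237 counts).

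The paralogs had the widest range. Rps27l, a p53 target and a close paralog of Rps27 (ENSMUSG00000036781, chr9:66946086-66949516 on the plus strand, GRCm38), had 1431, 1849.7 and 1259 counts in young WT and 3214, 5879 and 3532 in crisis. Its rise of 1.44 (SE 0.26, adjusted p = 0.0278) in limma was the highest of the 82 members tested. Rpl22l1 had 3309, 3831 and 2052 counts in young WT and 7001, 6631 and 5209 in crisis and rose by 1.07 (SE 0.25, adjusted p = 0.0279) in limma, while Rpl22 differed by 0.47 (SE 0.19, adjusted p = 0.0928). Rpl36al rose by 1.18 (SE 0.25, adjusted p = 0.0278), beside 0.76 (SE 0.25, adjusted p = 0.0536) for Rpl36a. Rpl7l1 rose by 0.73 (SE 0.22, adjusted p = 0.0401) and its relative Rpl7 by 0.68 (SE 0.21, adjusted p = 0.0474). Rps27rt, an intronless copy of Rps27 whose reads cannot be told apart from those of Rps27 by the files used here, rose by 0.86 (SE 0.23, adjusted p = 0.0336). Rpl3l, with 11.7, 0.0 and 22.1 counts in crisis, was the one member tested below 0 (-1.0, SE 1.18, adjusted p = 0.544), and its groups overlap. The parents of the near-absent paralogs, Rpl39 and Rpl3, differed by 0.77 and 0.54 and did not pass. Rpl10, which completes the large subunit late in its assembly, rose by 0.77 (SE 0.21, adjusted p = 0.0331).

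The calls depend on single libraries. Without any one of the young WT libraries, or without crisis replicate 3 (mouse 2953), limma called 0 members, with 0 or 1 genes called over all genes. Omitting mouse 2608 (replicate 1) left 60 members called and omitting mouse 2629 (replicate 2) left 29, while the median ranged from 0.63 to 0.97 over all 6 omissions. The size depends on how libraries are scaled, since all genes together shift too: unscaled, the members' median was 0.31 and that of all genes -0.55 (0 members called), and scaled to the library total it was 0.58 and -0.28 (19 called). The distance between members and all genes was 0.86 under each of the 3. A library's scaling factor moves all its genes alike, so this sameness was nearly fixed in advance and tests nothing.

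**Figure D3:**
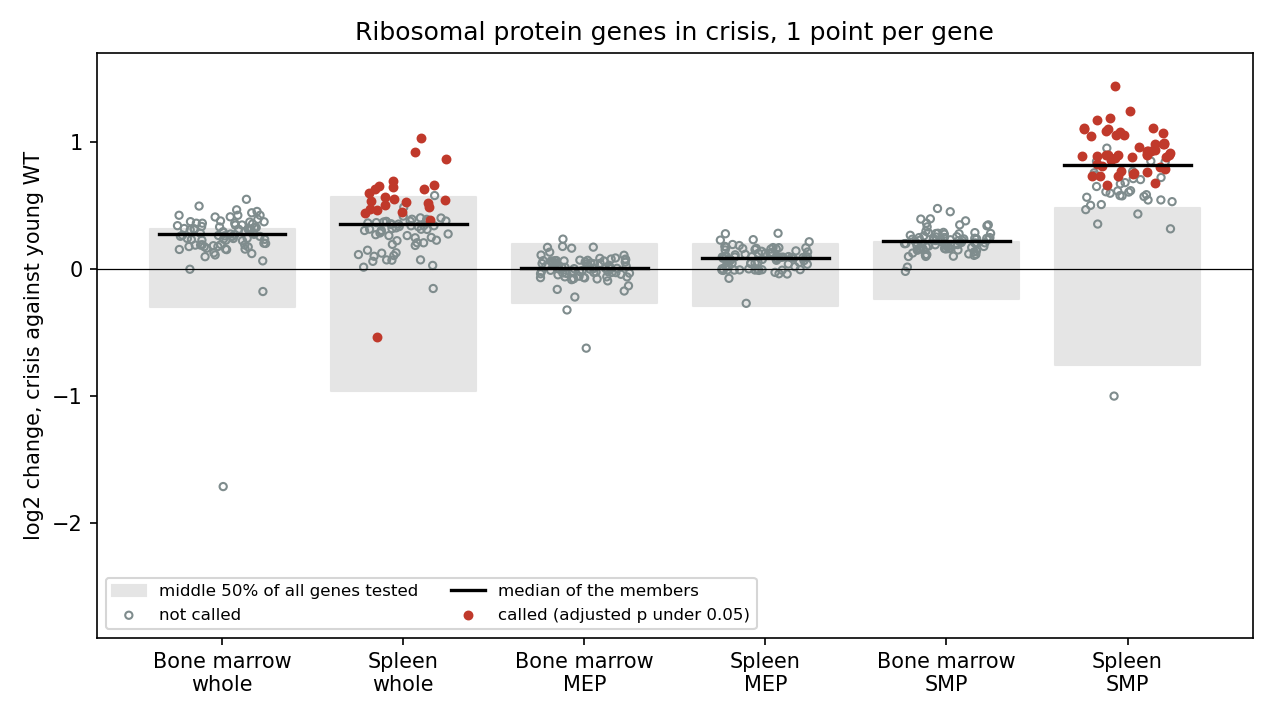
Log2 difference between crisis and young WT for each ribosomal protein gene in each of the 6 populations, 1 point per gene, with those past the limma threshold filled, the members' median as a line and the middle 50% of all genes tested as a grey band. The points of spleen SMP are centred on 0.82 and those of whole spleen on 0.35, while both MEP populations are centred near 0.

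The genes that build ribosomes were also higher in spleen SMP in crisis, where 12.9% of all genes rose and 11.2% fell. Of 55 ribosome assembly genes (snoRNP proteins, processing and export factors) 49 rose and none fell, with a median of 0.94. Of 20 genes of RNA polymerase I and its factors, which make rRNA, 10 rose (median 0.74), as did 9 of 16 translation factors with TOP mRNAs (median 0.61). Of 77 mitochondrial ribosomal protein genes, which serve a separate ribosome, 60 rose (median 0.92). Rack1, a small subunit protein outside the naming rule, rose by 0.76 (limma adjusted p = 0.0331), and it was the only 1 of 3 such genes that passed. Of 13 genes of mTORC1 and TOP mRNA control 1 rose and 1 fell (median 0.29), and of 8 genes of the MYC family none rose and 1 fell, counts near those shares. Myc itself differed by 0.55 (limma adjusted p = 0.0809). Of 7 ribosome rescue genes 2 rose, and none of the 4 genes of the p53 branch passed (median 0.02). Among the members that are Diamond-Blackfan anemia genes, 11 of 19 rose, with a median of 0.84 and a range of 0.50 to 1.08, which is close to the median of all members.

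Subunit genes with and without a 5' TOP tract at the annotated start had medians close to each other, and the difference was not tested. Of the 26 subunit genes with a tract 19 rose in spleen SMP in crisis (median 0.85), of the 29 without one 13 rose (median 0.77), and 11 of the 20 that the promoter table lacks rose (median 0.74). Rpl34, with a tract, and Rpl41, without one, were the 2 highest subunit genes.

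In bone marrow SMP of the same crisis mice, the members leaned the same way by a smaller amount. None of the 82 passed in limma (33 had an unadjusted p under 0.05, the smallest adjusted p was 0.0702, and 2.23% of all genes passed in either direction). Of all genes 23.4% had an unadjusted p under 0.05, against 40.2% of the members. The median was 0.22 (1.16-fold) against 0.00 for all genes, and 81 were above 0. Rplp0 had 62555, 68501 and 60190.1 counts in young WT and 73158, 77187 and 94125 in crisis. Rps27l had 1591, 1879 and 1460.4 counts in young WT and 2122, 2560.3 and 2165 in crisis (0.48, SE 0.13, adjusted p = 0.0793, limma). Neither gene's groups overlapped. Rpl22l1 (0.02) and Rpl7l1 (-0.02), which rose in spleen SMP, were near 0 here.

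The difference between both organs was tested in SMP directly. The crisis effect in spleen less that in bone marrow was above 0 for 10 members past the threshold and below 0 for none (limma with mouse as a random block, 4.44% of all genes higher), with a median of 0.54 against -0.08 for all genes, and 59 of 82 had an unadjusted p under 0.05, beside 25.2% of all genes. Among the 10 were Rpl22l1 (0.99, SE 0.26, adjusted p = 0.0293), Rpl34 (0.93, SE 0.23, adjusted p = 0.0247), Rpl36al (0.87), Rplp1 (0.79), Rpl9 (0.75), Rps25 (0.70), Rpl7l1 (0.69), Rps3 (0.66) and Rpl14 (0.63). The count rests on single mice. It was 0 without young WT mouse 2658, 2685 or 2810 or crisis mouse 2629, 2 without crisis mouse 2953, 3 without young WT mouse m25dwt, 24 without young WT mouse 2808 and 27 without crisis mouse 2608. Without mouse 2810, the third young WT mouse of spleen SMP, the median was 0.30, and without the mouse block or without scaling limma called 0. In the same test 36 of 77 mitochondrial ribosomal protein genes and 9 of 55 ribosome assembly genes were higher.

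In whole spleen the members' median was smaller, and 1 member went the other way. Of 81 members tested (Rpl3l and Rpl39l were too low), 23 rose and 1 fell in crisis, where 22.9% of all genes rose and 23.9% fell in limma, so that the count of risers is near the background. The median was 0.35 (1.28-fold) against -0.04 for all genes, and 79 were above 0. Scaled to the library total, the members' median changed sign to -0.12, beside -0.51 for all genes. Rps2, a protein at the mRNA entry channel, had 7503, 8009 and 6884 counts in young WT and 13381, 14895 and 13989 in crisis (0.92, SE 0.13, adjusted p = 0.000526, limma), or 0.89 when summed with its pseudogene rows. Rps27l had 1293, 1691 and 2070.4 counts in young WT and 3904, 3747 and 2654 in crisis (1.03, SE 0.21, adjusted p = 0.00406, limma). In both genes the crisis libraries all lay higher. Rplp0 (0.63, SE 0.15, adjusted p = 0.00745), Rpl41 (0.86, SE 0.22, adjusted p = 0.012) and Rpl22l1 (0.65, SE 0.19, adjusted p = 0.0227) also rose. Rps27rt went the other way, with 15076, 16688 and 21240.4 counts in young WT and 11442, 11805 and 13072 in crisis (-0.53, SE 0.16, adjusted p = 0.0219, limma), and its groups did not overlap. Rpl30 (0.01) was among the next lowest values and did not pass. In the same libraries lymphoid markers were lower, as given above, and 7 of 10 erythroid markers were higher. The p53 target Cdkn1a, whose product halts the cell cycle, was higher by 3.19, and 3 of 4 genes of that branch rose in whole spleen.

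In whole bone marrow none of the 83 members passed in limma (17 had an unadjusted p under 0.05, the smallest adjusted p was 0.0554, and 8.92% of all genes passed). Of all genes 26.6% had an unadjusted p under 0.05, against 20.5% of the members. The median was 0.27 against 0.02 for all genes, with 80 above 0. The library medians of the subunit genes overlapped, at -0.21, 0.29 and -0.14 in young WT and 0.22, 0.35 and 0.24 in crisis. Members of a library shifted together, with 73 of 75 subunit genes above the young WT mean in the second young WT library. The 80 are thus not separate observations. Scaled to the library total, the members' median was -0.00145, beside -0.26 for all genes. Rpl41 (0.55), Rplp0 (0.50) and Rps2 (0.47) were highest. Rpl3l lay apart from the other members, with 59.4, 89.2 and 55.7 counts in young WT and 45.4, 13.5 and 12 in crisis (-1.71, SE 0.57, adjusted p = 0.1, limma), at levels where few reads decide. Between both organs the crisis effect on whole tissue differed for 1 member, Rps27l (0.72, SE 0.27, adjusted p = 0.0465, limma, where 12.1% of all genes were higher), with a median of 0.05 over members. Its adjusted p was above the threshold without crisis mouse 2608 or 2953 or without young WT mouse 2658, 2685 or 2805, and the highest was 0.281, without mouse 2685.

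In the MEP populations the members' medians lay near 0. In bone marrow MEP none of 82 passed in limma (0.203% of all genes passed) and 0 had an unadjusted p under 0.05, beside 14.2% of all genes. The median there was 0.01, with 45 members above 0. In spleen MEP none of 81 passed, 4 had an unadjusted p under 0.05, beside 22.2% of all genes (1.2% of all genes passed), and the median was 0.09. The interaction between organ and crisis gave 0 members past the threshold in MEP (0.00628% of all genes passed). At an unadjusted p under 0.05 it gave 0 members, beside 3.51% of all genes. Rpl22l1 had the lowest value in spleen MEP (-0.27, SE 0.15, adjusted p = 0.329) and, after the near-absent Rpl3l, in bone marrow MEP (-0.32, SE 0.17, adjusted p = 0.398), opposite in sign to its rise in spleen SMP.

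Among the young WT mice, MEP had higher ribosomal protein mRNA levels than SMP, relative to other genes. In spleen the MEP and SMP libraries came from different young WT mice, so mouse and population cannot be told apart in that comparison. The labels of the sorted cells fit their markers: 10 of 10 erythroid markers were higher in MEP in bone marrow and 8 of 10 in spleen, and 7 of 7 early progenitor markers, among them the sort markers Kit and Cd34, were lower in both. MEP exceeded SMP in bone marrow for 51 of 82 members and in spleen for 63 of 82, with none lower (limma with mouse as a random block, 29.1% and 28.8% of all genes higher). The median was 0.38 in bone marrow and 0.53 in spleen, against -0.12 and -0.16 for all genes. Rps27l had the largest difference in both, 1.20 in bone marrow and 1.46 (SE 0.21, adjusted p = 8e-07) in spleen by limma. Next came Rps2 (1.05) and Rps19bp1 (0.95) in bone marrow, and Rpl22l1 (1.19) and Rplp1 (1.11) in spleen. Rps28 (0.01), a small subunit protein, did not differ past the threshold. Among Diamond-Blackfan anemia genes, 15 of 19 were higher in MEP in spleen and 12 of 19 in bone marrow. In spleen 44 of 55 assembly genes and 73 of 77 mitochondrial ribosomal protein genes were higher in MEP too. Without young WT mouse 2658 the bone marrow count was 29, and without mouse 2810 the spleen count was 39 and its median 0.33.

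In crisis fewer members passed this comparison in bone marrow and none in spleen. Bone marrow MEP exceeded SMP for 19 of 82 members, where 28.8% of all genes were higher, so that the count is not above the background. This count was 8 without mouse 2629, 11 without mouse 2953 and 30 without mouse 2810. The median was 0.20 against -0.05 for all genes. It was -0.14 beside -0.38 for all genes without scaling, and -0.02 beside -0.28 when scaled to the library total. Its sign thus rests on the scaling. Of the erythroid markers 4 of 10 were higher in MEP in spleen in crisis (median log2 difference 0.57) and 8 of 10 in young WT (median 2.31). In spleen 0 members passed in either direction and 6 had an unadjusted p under 0.05, though 43.8% of all genes passed, and the median was -0.08 against -0.03 for all genes. The difference between states was tested neither for the members nor for the markers. Without scaling, the young WT spleen gap gave a members' median of -0.27 beside -0.94 for all genes, so that its sign rests on the scaling. Its distance from all genes was 0.67 to 0.69 under the 3 scalings. These move all genes of a library alike and so cannot test that distance.

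Between organs in young WT mice the members were close in MEP, with a median of -0.09. There 0 members passed the limma threshold, beside 1.72% of all genes, and 0 had an unadjusted p under 0.05, beside 12.7% of all genes. In SMP 1 member was lower in spleen, Rpl22l1 (-0.86, SE 0.20, adjusted p = 0.0134, 0.71% of all genes lower), 23 had an unadjusted p under 0.05, beside 13.8% of all genes, and the median was -0.24. Without young WT mouse 2685 or 2810 limma called 0, without mouse 2808 it called 9, and without mouse 2810 the median was 0.00. In whole tissue 8 of 82 were higher in spleen, where 12.5% of all genes were higher, so that the count is not above the background. Among them were Rps27rt (0.57), Rpl12 (0.55), Rplp1 (0.48), Rps4x, Rpl13, Rpl30 and Rps15a. This count was 1 without mouse 2658 or m25dwt, 2 without mouse 2955, 17 without mouse 2810 and 37 without mouse 2685. The median over members was 0.27 against 0.02 for all genes. Scaled to the library total, the members' median changed sign to -0.02, beside -0.27 for all genes.

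The share of all normalised counts held by the 83 members needs no scaling between libraries. In spleen SMP it was 4.74 ± 0.99% (SD, n = 3) in young WT and 6.63 ± 0.83% in crisis, and the lowest crisis library (6.13%) lay above the highest young WT library (5.45%). In bone marrow SMP it was 5.46 ± 0.28% and 6.16 ± 0.26%. In bone marrow MEP the share was 6.20 ± 0.34% in young WT and 6.11 ± 0.12% in crisis, and in spleen MEP 5.69 ± 0.39% and 5.65 ± 0.20%, so that the MEP groups overlapped. Whole spleen held 2.98 ± 0.36% in young WT and 2.75 ± 0.43% in crisis, and adult globins took 16.6 to 17.0% and 14.7 to 24.1% of the same libraries. Whole bone marrow held 3.01 ± 0.47% and 3.01 ± 0.21%. With 3 against 3 mice an exact permutation test cannot go below p = 0.1, and none was run on the shares.

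**Figure D4:**
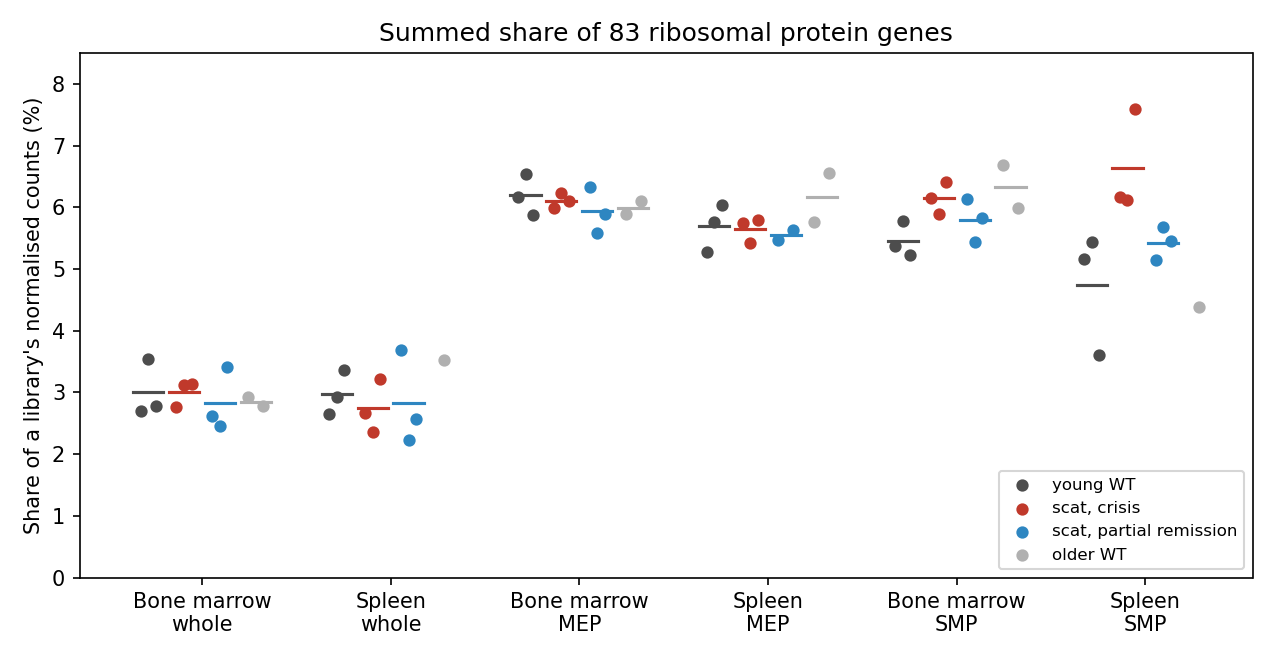
Percent of all normalised counts held by the 83 ribosomal protein genes in each library, 1 point per library and a line at each mean, by population and state. In spleen SMP all crisis libraries (from 6.13%) lie above all young WT libraries (up to 5.45%), and whole tissues lie lowest at about 3%.

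In remission the members of spleen SMP leaned below crisis, with library medians that overlapped those of young WT. No gene of 15152 passed in limma (0% called), but 63 of 82 members had an unadjusted p under 0.05, beside 14.6% of all genes, 81 were below crisis and the median was -0.52 against -0.03 for all genes (smallest adjusted p = 0.34). Library medians in remission were 0.10, 0.37 and 0.20 relative to the young WT mean, below every crisis library. Of these, 0.10 and 0.20 lay inside the young WT range (-0.43 to 0.27) and 0.37 lay above it. The single older WT library was at -0.24. Remission was not tested against young WT. Rplp0 had 69998, 86461 and 72514 counts in remission. Rpl34 had 8928, 13646 and 13436, and Rps27l 1817, 3386 and 2069. All 3 remission libraries lay below all crisis libraries for Rpl34, and the groups overlapped for Rplp0 and Rps27l. Rpl41 (-0.89), Rps27l (-0.80) and Rpl29 (-0.78) had the lowest values, and Rpl29 was at -0.50 when summed with its pseudogene rows. Rpl7l1 (-0.21) and Rpl22 (-0.22) were nearest to 0 among the abundant members.

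In the other populations the medians of remission against crisis were nearer to 0. The median was -0.28 in whole spleen, -0.23 in whole bone marrow, -0.13 in bone marrow SMP, -0.10 in spleen MEP and -0.06 in bone marrow MEP. Limma called 0 members in each, beside 0.0303% of all genes in spleen MEP and 0% elsewhere. An unadjusted p under 0.05 was found for 0 of 81 members in whole spleen (12.6% of all genes) and 2 of 83 in whole bone marrow (12.4%). It was found for 12 of 82 in bone marrow SMP (15.9%), 0 of 81 in spleen MEP (5.69%) and 1 of 82 in bone marrow MEP (7.97%). Remission replicate 1 of 4 populations comes from mouse 2726, whose libraries lay nearer to WT than to scat in earlier analyses of these data. Without it the medians were -0.21 in whole spleen, -0.16 in whole bone marrow, -0.17 in bone marrow SMP and -0.10 in bone marrow MEP.

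Rpl22l1 and Rpl22 were compared per base of transcript, since they can replace each other in the ribosome. The lengths used were 538.5 bases for Rpl22l1 and 2048 for Rpl22. The size of each percentage depends on these lengths, while the order of the groups does not. In spleen SMP Rpl22l1 stood at 69.2 ± 10.5% of Rpl22 (SD, n = 3) in young WT and at 106 ± 22.7% in crisis, with no overlap. In MEP the order was opposite: bone marrow MEP had 134 ± 2.16% in young WT, 106 ± 21.3% in crisis and 138 ± 7.24% in remission, and spleen MEP had 142 ± 1.19%, 110 ± 26.5% and 150 ± 0.56% (n = 2 in remission). The crisis libraries lay below all young WT libraries of their population in both MEP populations. In spleen MEP the highest crisis library (139.4%) was next to the lowest young WT library (140.6%), and the other crisis libraries were at 102.5 and 88.1%. In bone marrow SMP the ratio was 113 ± 8.37% and 107 ± 15.3%, with overlapping groups, and in whole spleen it was 115 ± 6.11% and 147 ± 8.96%, with no overlap. In whole bone marrow it was 134.2, 90.9 and 119.1% in young WT and 142.0, 131.1 and 115.7% in crisis, with overlapping groups. The ratio within a library does not depend on scaling. It shows unequal change of the pair and not which of them moved.

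**Figure D5:**
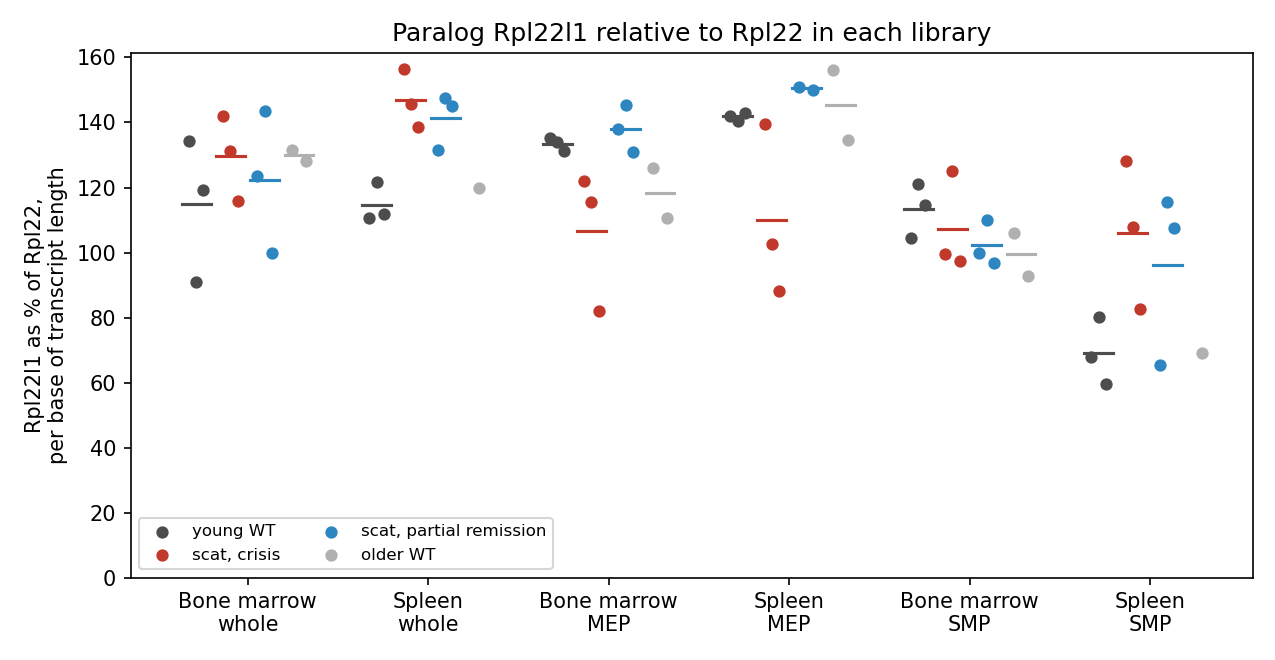
Rpl22l1 as a percentage of Rpl22 per base of transcript in each library, by population and state, 1 point per library and a line at each mean. Crisis libraries lie above young WT in spleen SMP (82.7 to 128% against 59.4 to 80.3%) and below young WT in both MEP populations. The highest crisis library of spleen MEP (139.4%) is next to its lowest young WT library (140.6%).

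Rpl36al and its parent Rpl36a were compared in the same way. Rpl36al stood at 26.4 ± 0.32% of Rpl36a per base in young WT bone marrow SMP and at 26.2 ± 1.91% in young WT spleen SMP, and at 36.0 ± 10.5% in spleen SMP in crisis. The crisis spread was wide, and the difference was not tested. In bone marrow SMP in crisis, Rpl36al and Rpl36a differed from young WT by 0.23 and 0.22 in log2. In spleen MEP they differed by 0.23 and -0.01. None of these passed in limma.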

How the data were processed

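The authors' deposited files are 1 table of normalised counts (a normalised signal per gene, not whole reads) and 1 table of regularised log2 values made by the authors from the same libraries. Per the submitters' processing notes, Bowtie2 2.2.0, RSEM, DESeq2 and GRCm38 were used, in an order not given in the sources used here. Symbols come from GENCODE M21 (25607 identifiers matched).

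Columns were divided by their median ratio to the geometric mean of their population (log2 factors from -0.92 to 0.52). Log2(count + 1) of genes with a mean of at least 10 was fitted with limma 3.58.1 in R 4.3.3 (trend, robust empirical Bayes), with the 2 groups compared in each fit. Tests were two-sided with Benjamini-Hochberg adjustment over all genes and a threshold of 0.05. Comparisons between populations used 1 fit of the young WT and crisis libraries of all 6 populations with mouse as a random block (correlation 0.227). The fit was tested on simulated data. Replicates are separate mice, and mice are shared between populations.

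Pseudogene rows were matched to members at 90% identity over at least 50% of the length. Genes named are the stalk genes, Rpsa, Rps6, Rps19, Rpl5, Rpl11, the paralogs with their parents, and the 3 highest and 3 lowest members of each comparison. Others, chosen after their values were seen, are named where few pass. Single values of a few genes are not reported here, though they are counted. Members and lists were chosen with earlier results of these data known. One whole spleen library of mouse 27265 with contradictory labels entered no comparison. Alternatives were other scalings, pseudocount and filters, the regularised log2 values, all groups in 1 fit, a covariate for the 15 libraries whose low values lie on a single step, no mouse block, and leaving out each library, or each crisis mouse in comparisons between populations. Leaving out each young WT mouse there was added after seeing the data.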

Additional observations from a re-analysis of the deposited data

Results flagged for a closer look

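The crisis effect differed between spleen and bone marrow by the interaction test in limma (Benjamini-Hochberg adjusted, mouse as a random block) for 10 members in SMP and for 1 in whole tissue, all with a larger crisis effect in spleen. Among the 10 in SMP, the log2 difference of the effects was 0.99 for Rpl22l1, 0.93 for Rpl34, 0.87 for Rpl36al, 0.79 for Rplp1, 0.75 for Rpl9, 0.70 for Rps25, 0.69 for Rpl7l1, 0.66 for Rps3 and 0.63 for Rpl14. Young WT spleen SMP came from other mice than young WT bone marrow SMP. In whole tissue the difference was 0.72 for Rps27l.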

How the results depend on the processing

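The members' median less that of all genes kept its sign under the 3 scalings in all 22 comparisons. A library's scaling factor moves all its genes alike, so this was nearly fixed in advance and tests nothing. The count of members past the limma threshold did not hold everywhere. With no further scaling it was 0 for crisis in spleen SMP, 3 in whole spleen, 0 for both organ interactions in SMP and whole tissue, 0, 5 and 4 (the 4 all lower) for MEP against SMP in bone marrow crisis, bone marrow WT and spleen WT, and 0 for both spleen against bone marrow comparisons, in SMP and in whole tissue. Scaled to the library total it was 19 in spleen SMP, 3 in whole spleen (1 higher, 2 lower), 1 in whole bone marrow (lower), 0 for the SMP interaction, 11, 19, 20 (all lower) and 39 for MEP against SMP in bone marrow crisis, bone marrow WT, spleen crisis and spleen WT, and 4 in SMP and 3 (lower) in whole tissue for spleen against bone marrow. With all groups in 1 fit it was 4 in bone marrow SMP and 0 in whole spleen. With the single-step covariate, which could not be estimated in spleen SMP, it was 1 in bone marrow SMP, 10 in whole bone marrow and 12 in whole spleen. Without a filter the interactions gave 1 in SMP and 0 in whole tissue, and without the mouse block 0 and 0. Without scaling the medians were, for example, 0.33 in bone marrow SMP, 0.29 in spleen MEP, 0.31 in spleen SMP and -0.01 for the SMP interaction. Summed with their pseudogene rows, an alternative chosen after seeing the data, members passed 53 times in spleen SMP and 10 times in the SMP interaction.

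Leaving out 1 library (between populations, 1 crisis or young WT mouse) gave 0 to 60 members in spleen SMP, 8 to 31 in whole spleen, 0 to 11 in whole bone marrow and 0 to 7 in bone marrow SMP. It gave 0 to 27 and 0 to 2 for the SMP and whole tissue interactions, 8 to 30, 29 to 61, 0 to 3 and 39 to 72 for MEP against SMP in bone marrow crisis, bone marrow WT, spleen crisis and spleen WT, 0 to 1 for remission in bone marrow SMP, and 1 to 37 and 0 to 9 for spleen against bone marrow in whole tissue and SMP. The SMP interaction gave 24 without young WT mouse 2808, spleen against bone marrow in whole tissue 17 without mouse 2810, and MEP against SMP in bone marrow in crisis 15 without crisis mouse 2608. In whole spleen the count was 8 without mouse 2629 and 12 without young WT mouse 2658 or 2685, in whole bone marrow 11 without young WT mouse 2685, and in bone marrow SMP 7 without mouse 2608.

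Called values changed sign as follows. Scaled to the library total in whole spleen, Rpl7l1 was at -0.00104 and Rpsa at -0.0136. Without scaling, MEP against SMP gave -0.0225 for Rpl10 in bone marrow crisis, and in young WT spleen Rpl10 -0.25, Rpl11 -0.41, Rpl36a -0.36, Rpl5 -0.28, Rpl7 -0.27, Rpl7l1 -0.19, Rplp2 -0.35, Rps19 -0.29, Rps27rt -0.31, Rps6 -0.46 and Rpsa -0.19. The alternative's own scale moved all genes with them (median -0.94).

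The cause of the other changes was not tested. The replicate numbers were given in accession order. No paired analysis was possible because they do not pair mice across states.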

Other observations

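The unassigned whole spleen library of mouse 27265 held 2.94% of its normalised counts in the 83 ribosomal protein genes, inside the range of the assigned whole spleen libraries of young WT and crisis. Older WT libraries of bone marrow SMP lay at 0.37 and 0.14 for the median subunit gene in log2 relative to young WT, beside 0.16 to 0.28 in crisis, and the older WT library of spleen SMP lay at -0.24. The library at 0.37 is of mouse 27265, whose libraries lay nearer to scat than to WT in earlier analyses of these data.

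The share of pseudogene rows that match the members followed the members in spleen SMP, at 1.07 ± 0.119% of normalised counts (SD, n = 3) in young WT, 1.53 ± 0.186% in crisis and 1.27 ± 0.0671% in remission. Mitochondrial ribosomal protein genes held 0.251 ± 0.0153%, 0.3998 ± 0.0492% and 0.333 ± 0.0544% of the same libraries.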
